A study of Mus musculus with 6 samples.

Results

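The transcripts described here encode the ryanodine receptor calcium release complex of heart muscle and the proteins that hold its junction together. The 10 genes were chosen by symbol, out of 34945 symbols in the count table, and all 10 were found: Ryr2, Fkbp1b, Sri, S100a1, Casq2, Hrc, Trdn, Asph, Jph2 and Bin1. Left ventricular tissue was sequenced from 3 mice carrying the 4SA-Rad knock-in allele and 3 wild-type mice, all given as strain C57BL/6N, with no treatment, age or sex in the labels. Rad, encoded by Rrad, is a small GTP-binding protein that restrains the L-type calcium channel. The allele concerns its phosphorylation, which the series title links to the fight-or-flight response. The labels call it a knock-in and name no Cre line or transgene. The comparison asks whether transcripts of the release machinery downstream of that channel stand at another level in the knock-in ventricle.

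In a ventricular muscle cell, the calcium that enters through L-type channels of the T-tubule opens ryanodine receptors in the facing membrane of the sarcoplasmic reticulum. The much larger release that follows drives contraction. RYR2 is the release channel. Calsequestrin-2 and the histidine-rich calcium-binding protein buffer calcium in the lumen, and triadin and junctin anchor the buffers to the channel. Junctophilin-2 tethers the reticulum to the T-tubule membrane, and BIN1 bends and organises that membrane. FKBP12.6, sorcin and S100A1 bind the channel and modulate its opening.

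Of these genes, Hrc rose by 13.7% and S100a1 fell by 13.6% in knock-in ventricles (n = 3 mice per genotype), and the release channel gene Ryr2 itself stayed within the spread between mice. Fkbp1b was too weakly read to be tested (3 to 12 counts per library), so 9 of the 10 genes passed the filter on low counts, of which 1 rose, 1 fell and 7 did not pass the test. A gene was called at an adjusted p below 0.05 in edgeR's quasi-likelihood test with Benjamini-Hochberg adjustment over all 13485 genes tested, of which 9.01% were called, 4.00% as higher and 5.01% as lower in knock-in. With 9 genes, 2 calls is a small count to set against that background. The median log2 fold change of the 9 genes (knock-in minus wild-type throughout) was -0.03, and that of all tested genes was 0.00356. The ranges of the 3 knock-in and 3 wild-type libraries did not overlap for 4 of the 9 genes (Hrc, S100a1, Trdn and Bin1), against 29.4% of all tested genes. DESeq2 and limma-voom each called 1 gene of the complex higher and 1 lower. Over all genes DESeq2 called 450 higher and 611 lower of 12975, and limma-voom 534 and 718 of 13485.

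The table held between 35259459 and 39627397 estimated counts in knock-in libraries and between 24761124 and 32669182 in wild-type libraries, so every knock-in library was the deeper. Genes of the mitochondrial genome took 56.9%, 56.7% and 53.5% of the counts in knock-in and 53.1%, 53.9% and 55.8% in wild-type. The totals behind the CPM values include them. Rrad was read at 27.0, 56.8 and 42.3 counts-per-million (CPM) in knock-in and 44.7, 29.97 and 32.2 CPM in wild-type, and total counts do not check the allele. Nnt (680 ± 73.8 and 272 ± 9.999 CPM), Wdfy1 (15.1 ± 0.456 and 5.35 ± 0.497 CPM) and Entpd4 (31.5 ± 1.15 and 65.0 ± 5.54 CPM) differed between knock-in and wild-type (mean ± SD, n = 3 each). These genes are known to differ between C57BL/6 substrains, and substrain and allele cannot be told apart in any difference given here. The summed level of 8 cardiomyocyte markers was 40745 to 42069 CPM in knock-in and 39789 to 42198 CPM in wild-type. Myh6 gave 18873 and 18173 CPM of it on average. The groups did not overlap for 5 of the 8, against 29.4% of all tested genes. Their log2 fold changes were 0.05 (Myh6), 0.14 (Tnnt2), 0.05 (Tnni3), 0.16 (Myl2) and -0.19 (Actc1). Among the 8 markers edgeR called 0, DESeq2 3 (2 higher, 1 lower) and limma-voom 2 (2 higher, 0 lower). Over all genes DESeq2 called 1061 of 12975 and limma-voom 1252 of 13485. At an unadjusted p under 0.05 edgeR gave 3 of the 8 markers, against 3401 of all 13485 tested genes. In bulk tissue, fewer cells of a type and less RNA per cell cannot be told apart.

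The 10 genes together took 0.709% to 0.723% of the non-mitochondrial counts in knock-in libraries and 0.712% to 0.719% in wild-type libraries. Within that near-constant total they spanned a wide range of levels. Per kilobase of the longest coding transcript, Hrc (337 ± 3.14 CPM per kilobase) and S100a1 (330 ± 10.2) were the highest in knock-in, and S100a1 (382 ± 14.8) and Hrc (297 ± 6.06) in wild-type. The knock-in ranges of the pair overlapped and the wild-type ranges did not. With the median coding length in place of the longest, Hrc was first in both genotypes, so their order rests on the transcript taken. Casq2 followed at 213 ± 8.17 CPM per kilobase in knock-in and 195 ± 10.7 in wild-type, then Ryr2 at 65.9 ± 3.41 and 67.1 ± 0.601. Trdn and Jph2 lay close together, at 51.5 ± 0.777 and 48.2 ± 1.21 CPM per kilobase in knock-in, where their ranges did not overlap, and at 49.4 ± 0.944 and 50.1 ± 1.49 in wild-type, where they did. The median coding length brought Ryr2, Casq2 and Trdn together, at 225, 224 and 214 CPM per kilobase in knock-in and 229, 205 and 205 in wild-type. By the longest transcript Asph, Sri, Bin1 and Fkbp1b came last in both genotypes, at 19.2, 6.61, 1.23 and 0.195 CPM per kilobase in knock-in and 18.5, 6.73, 1.56 and 0.267 in wild-type. The channel is a homotetramer and its partners have stoichiometries of their own, so levels of mRNA per length are not subunit ratios.

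**Figure D1:**
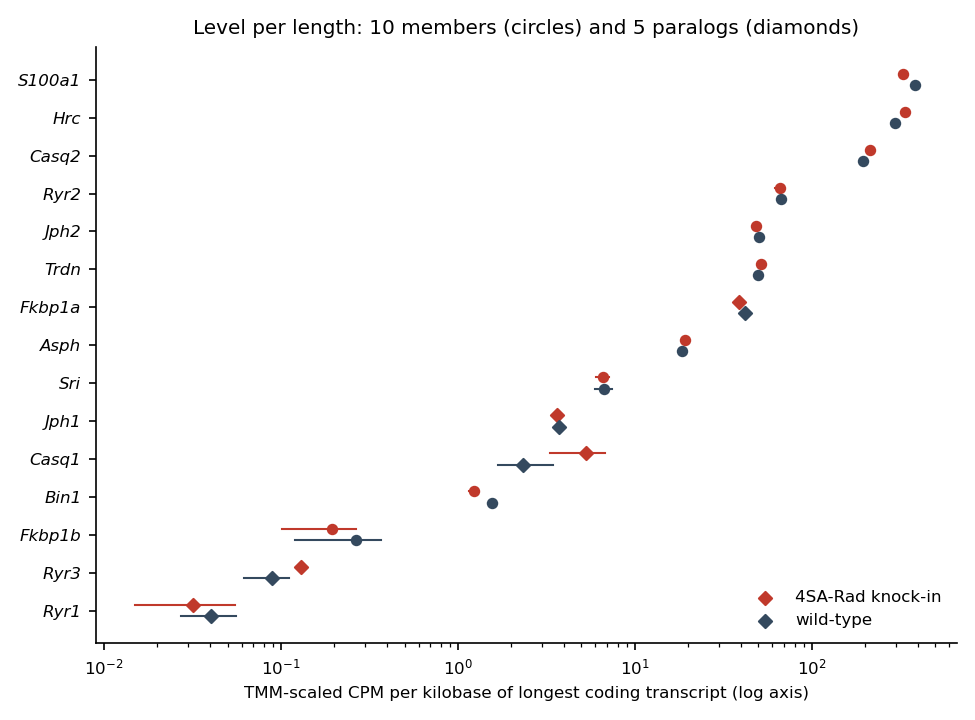
Level of the 10 release complex genes (circles) and 5 paralogs (diamonds) in knock-in (red, upper mark of each pair) and wild-type (dark, lower mark) ventricles, as TMM-scaled CPM per kilobase of the longest coding transcript on a log axis; marks are means of 3 mice and lines run from the lowest to the highest mouse. S100a1, Hrc and Casq2 were highest, and Fkbp1b lay below its paralog Fkbp1a.

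Because Hrc and S100a1 carried the only calls among the 10 genes, the 250 bases upstream of their annotated starts are shown beside those of Ryr2, which was not called; the choice was made with their values known. The sequences are from RefSeq on GRCm38.p6 and are written 5′ to 3′ on the gene's strand. Hrc is from chr7:45335019-45335268 (plus), S100a1 from chr3:90514331-90514580 (minus) and Ryr2 from chr13:12106946-12107195 (minus). RefSeq and GENCODE starts can differ. The bases of the S100a1 window up to 90514392, with its GGGTG, lie inside the gene as GENCODE places it. Capitals mark the E-box CANNTG and the CACCC box, each searched on both strands.
Hrc: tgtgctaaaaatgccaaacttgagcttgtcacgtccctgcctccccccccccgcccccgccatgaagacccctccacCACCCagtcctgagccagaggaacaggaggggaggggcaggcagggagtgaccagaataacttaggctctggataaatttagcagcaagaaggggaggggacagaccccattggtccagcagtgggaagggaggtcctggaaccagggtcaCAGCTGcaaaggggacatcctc
S100a1: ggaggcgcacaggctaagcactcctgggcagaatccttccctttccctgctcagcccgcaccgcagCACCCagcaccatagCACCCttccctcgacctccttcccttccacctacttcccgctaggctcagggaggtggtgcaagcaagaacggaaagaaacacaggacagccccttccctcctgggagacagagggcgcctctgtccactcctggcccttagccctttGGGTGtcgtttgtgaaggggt
Ryr2: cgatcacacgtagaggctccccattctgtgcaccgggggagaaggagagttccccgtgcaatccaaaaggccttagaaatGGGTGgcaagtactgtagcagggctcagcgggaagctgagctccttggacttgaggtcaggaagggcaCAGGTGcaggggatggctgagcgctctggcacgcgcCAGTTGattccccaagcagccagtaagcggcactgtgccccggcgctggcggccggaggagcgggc
The Hrc window held 1 E-box, from 22 to 17 bases before the start, and 1 CACCC box. The S100a1 window held 3 CACCC boxes and no E-box, and the Ryr2 window held 2 E-boxes and 1 CACCC box. Of 32851 promoter windows of the same length, 66.2% held an E-box and 52.0% a CACCC box, so such matches are common. TATAAA (12.4% of windows), the core of sites for MEF2 factors (CTA and TAG with any 4 bases between them, 3.20%), AGATAA (9.99%) and TGACG (17.8%) were searched in the same way and matched none of these 3 windows. Promoter windows were matched for 7 of the 10 genes, and the share of G and C was 59.6% for Hrc, 61.6% for S100a1 and 63.2% for Ryr2, against a median of 52.4% over all windows.

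The release channel gene Ryr2 (GRCm38 chromosome 13, 11553102 to 12106945, minus strand) was read at 1153, 1043 and 1125 CPM in knock-in and at 1140, 1123 and 1122 CPM in wild-type. Knock-in mouse 2 was the lowest of the 6 and knock-in mouse 1 the highest, so the groups overlapped. The log2 fold change was -0.03 ± 0.05 (SE, edgeR adjusted p = 0.772). Its 95% interval ran from -8.80% to 5.58%, which bounds the difference these libraries allow. Ryr2 stood at the 99.7th percentile of all tested genes by CPM, from 29261 to 45397 counts per library. The 3 tested genes whose levels followed Ryr2 most closely over the 6 libraries were Secisbp2l, Tnpo3 and Xrcc5, with a root mean square difference of centred log2-CPM of 0.0153, 0.0165 and 0.0181. Among the other members Jph2 was nearest to Ryr2 by this measure (0.0399, rank 190 of 13484 genes) and Bin1 farthest (0.178, rank 8442).

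Among the proteins that bind the channel, S100A1 is a small EF-hand calcium sensor known to enhance calcium release and uptake in heart muscle. S100a1 (chromosome 3, 90511034 to 90514392, minus strand) was read at 221, 231 and 218 CPM in knock-in and at 257, 250 and 269 CPM in wild-type. All 3 knock-in mice lay below all 3 wild-type mice. It fell by 0.21 ± 0.05 on the log2 scale (edgeR adjusted p = 0.0219), with a 95% interval from -19.6% to -7.24%. The call ended when knock-in replicate 3 was removed (log2 fold change -0.19, edgeR adjusted p = 0.109) and when wild-type replicate 3 was (-0.18, adjusted p = 0.0759).

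Sorcin, the product of Sri, is a penta-EF-hand protein that binds and inhibits the channel when calcium rises. Sri (chromosome 5, 8046078 to 8069379, plus strand) stood at 18.001, 15.1 and 16.5 CPM in knock-in and 14.9, 17.1 and 18.5 CPM in wild-type. The groups covered nearly the same range. The log2 fold change was -0.03 ± 0.09 (edgeR adjusted p = 0.875), with a 95% interval from -14.7% to 12.5%. Its direction turned without knock-in replicate 2 (0.03) or without wild-type replicate 3 (0.04).

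FKBP12.6, the product of Fkbp1b, is an immunophilin that binds the channel and is thought to steady its closed state. Fkbp1b (chromosome 12, 4833174 to 4841591, minus strand) had 7, 9 and 4 counts in knock-in libraries and 3, 12 and 10 in wild-type libraries. Summed over mice these were 20 counts (exact Poisson 95% interval 12.2 to 30.9) and 25 counts (16.2 to 36.9), and the intervals cover counting error only. The CPM values of 0.212, 0.259 and 0.0992 in knock-in and 0.117, 0.358 and 0.307 in wild-type overlapped (exact permutation test, two-sided p = 0.4; the smallest p that 3 against 3 allows is 0.1). With no filter on low counts its log2 fold change was -0.51 ± 0.60 (edgeR adjusted p = 0.668), so no difference was detectable at this depth. Its paralog Fkbp1a, encoding FKBP12, was read at 64.2 ± 1.17 CPM in knock-in and 69.2 ± 1.86 CPM in wild-type (log2 fold change -0.11 ± 0.04, edgeR adjusted p = 0.152). The Fkbp1a groups did not overlap. Per kilobase Fkbp1a stood at 38.7 CPM in knock-in and 41.7 CPM in wild-type.

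**Figure D2:**
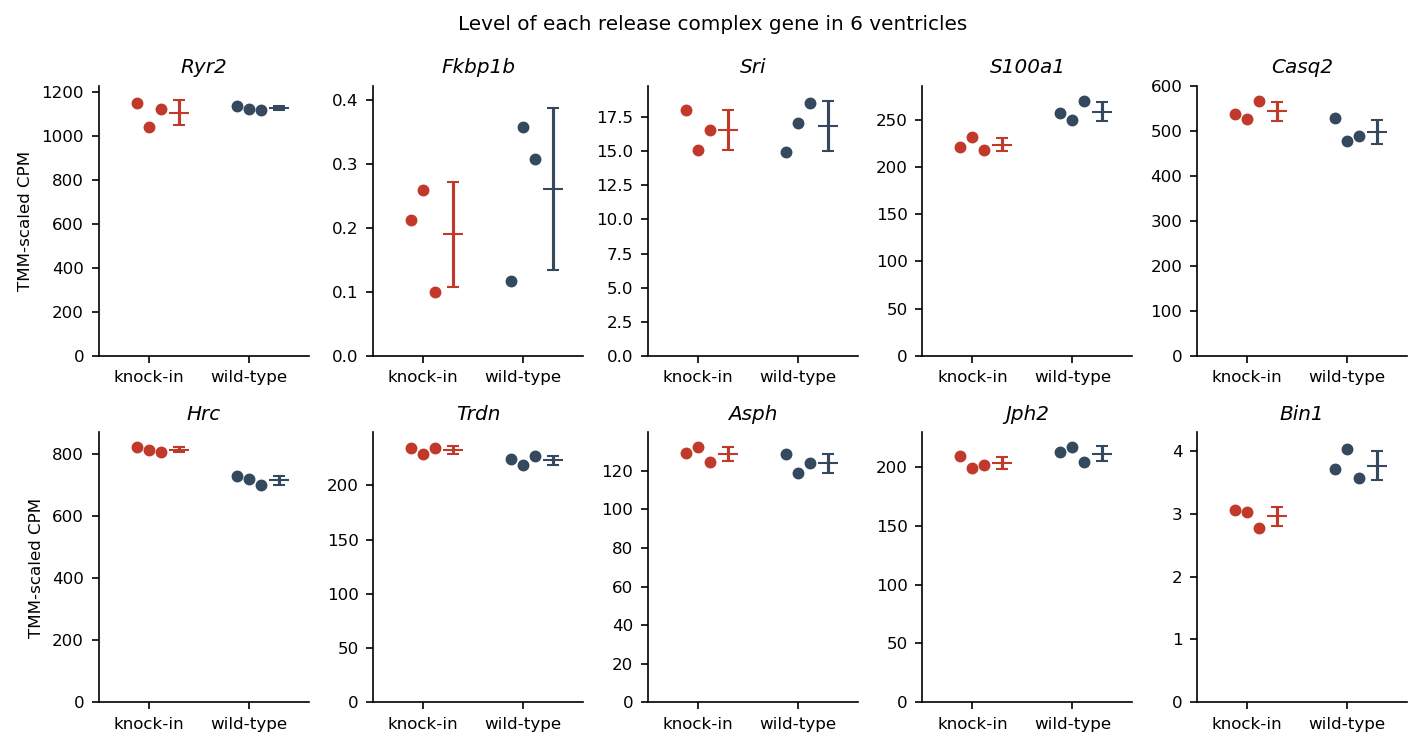
TMM-scaled CPM of each of the 10 genes in each ventricle, knock-in on the left and wild-type on the right of every panel; points are single mice, the bars beside them are mean ± SD of 3 mice, and every axis starts at 0. Hrc and S100a1 separate the genotypes in opposite directions, and Bin1 and Trdn also do not overlap.

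The histidine-rich calcium-binding protein, product of Hrc, sits in the reticulum lumen and is known to bind triadin and the calcium pump. Hrc (chromosome 7, 45335290 to 45338974, plus strand) was read at 822, 812 and 807 CPM in knock-in and at 728, 720 and 700 CPM in wild-type. Every knock-in mouse lay above every wild-type mouse. It rose by 0.18 ± 0.04 on the log2 scale (edgeR adjusted p = 0.0220), with a 95% interval from 6.76% to 21.0%. Its spread within genotypes, 0.0229 on the log2-CPM scale, was at the 0.868th percentile of all tested genes, among the tightest in the table. Removing knock-in replicate 2 or 3 gave an edgeR adjusted p of 0.0653 or 0.0746, and removing wild-type replicate 2 or 3 gave 0.0560 or 0.0796, at log2 fold changes from 0.17 to 0.19. With library size alone as the scaling, the log2 fold change was 0.10 and the adjusted p 0.320.

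Calsequestrin-2, the product of Casq2, is the main calcium buffer of the cardiac reticulum. Casq2 (chromosome 3, 102086415 to 102146514, plus strand) stood at 539, 526 and 567 CPM in knock-in and 529, 477 and 489 CPM in wild-type. Knock-in mouse 2 lay below wild-type mouse 1, and the other mice were apart. The log2 fold change of 0.13 ± 0.05 had an unadjusted p of 0.0348 and an edgeR adjusted p of 0.161, and so did not pass. The 95% interval ran from 0.762% to 18.3%.

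Its skeletal muscle paralog Casq1 was read at 10.9, 6.11 and 12.5 CPM in knock-in and 3.12, 6.35 and 3.53 CPM in wild-type. Knock-in mouse 2 lay below wild-type mouse 2, so the groups overlapped, although the gene rose (log2 fold change 1.17 ± 0.29, edgeR adjusted p = 0.0327). It did not pass with robust dispersions (0.193) or DESeq2 (0.0712). Nor did it pass without knock-in replicate 1 or 3 (0.0538 and 0.149) or without wild-type replicate 1 or 3 (0.105 and 0.125). The sum of 5 atrial markers was 69.8 to 122 CPM in knock-in and 49.7 to 127 CPM in wild-type, and none of the 4 that were tested passed. The untested Bmp10 had 0 counts in every knock-in library and 1 to 2 in wild-type. Of the tested genes, Nppa had a log2 fold change of -0.40, while Myl7, Myl4 and Sln had 0.73, 0.66 and 0.54. Myl7, an atrial myosin light chain gene, was read at 28.1, 15.1 and 17.3 CPM in knock-in and 6.74, 27.8 and 1.17 CPM in wild-type. As for Casq1, the lowest knock-in mouse was mouse 2, the highest wild-type mouse was mouse 2, and the groups overlapped. The other ranks differed. The highest knock-in mouse was mouse 3 for Casq1 and mouse 1 for Myl7, and the lowest wild-type mouse was mouse 1 for Casq1 and mouse 3 for Myl7. The part of atrial tissue in the Casq1 difference was not tested. Markers of skeletal muscle were near 0, with 8 of them summing to 0.749 to 1.15 CPM in knock-in and 0.983 to 1.14 CPM in wild-type, and Myf6 at 0 counts in every library. Per kilobase Casq1 stood at 5.33 ± 1.81 CPM in knock-in and 2.35 ± 0.951 CPM in wild-type, far below the 213 and 195 CPM of Casq2.

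Triadin and junctin are related single-pass proteins of the junctional membrane that link calsequestrin to the channel. Trdn (chromosome 10, 33080554 to 33476709, plus strand) was read at 235, 228 and 234 CPM in knock-in and at 224, 219 and 227 CPM in wild-type. The groups did not overlap, but the lowest knock-in mouse (228 CPM) and the highest wild-type mouse (227 CPM) were close. The log2 fold change of 0.06 ± 0.04 did not pass (edgeR adjusted p = 0.415), and it was -0.02 with library size alone. Trdn was nearly as tight as Hrc within genotypes, at the 1.24th percentile of all genes.

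Asph (chromosome 4, 9448069 to 9669344, minus strand) encodes junctin, and also junctate and an aspartyl hydroxylase from other transcripts of the same gene. It stood at 129, 132 and 125 CPM in knock-in and 129, 119 and 124 CPM in wild-type, with overlapping groups (log2 fold change 0.05 ± 0.05, edgeR adjusted p = 0.519; -0.03 with library size alone). GENCODE lists 15 coding transcripts of Asph, 457 to 6694 bases long, and the counts per symbol do not separate them. Exons of Asph share 2302 bases with Clvs1 on the opposite strand, and whether counting used strand is not given in the sources used here.

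Jph2 (chromosome 2, 163336242 to 163397993, minus strand), whose product spans the cleft between reticulum and T-tubule, was read at 209, 199 and 201 CPM in knock-in and 212, 216 and 204 CPM in wild-type. The groups overlapped between 204 and 209 CPM. The log2 fold change was -0.05 ± 0.04 (edgeR adjusted p = 0.497), with a 95% interval from -9.93% to 3.04%. Its skeletal relative Jph1 was at 17.5 ± 0.982 CPM in knock-in and 17.9 ± 0.736 CPM in wild-type (edgeR adjusted p = 0.785).

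Bin1, encoding a membrane-bending protein of T-tubules that is also made in many other cell types, had the log2 fold change farthest from 0 among the tested genes of the complex and the fewest counts. Bin1 (chromosome 18, 32377230 to 32435737, plus strand) stood at 3.06, 3.03 and 2.78 CPM in knock-in and 3.70, 4.02 and 3.56 CPM in wild-type. All knock-in mice lay below all wild-type mice, on 95 to 135 counts in each. The log2 fold change was -0.35 ± 0.13, which did not pass (unadjusted p = 0.0192, edgeR adjusted p = 0.115). With every library thinned to the total of the shallowest, an alternative added after seeing the data, it was -0.21 (edgeR adjusted p = 0.4). Thinning was a single random draw, in which S100a1, at -0.22, lay farther from 0. The summed counts were 318 in knock-in (exact Poisson 95% interval 284 to 355) and 346 in wild-type (310 to 384), or 2.94 (2.63 to 3.29) and 3.77 (3.38 to 4.19) CPM. Among lists of markers of other cells, some were lower in knock-in and others were not. Sums in knock-in and wild-type were 383 to 423 and 371 to 452 CPM for fibroblast markers, and 602 to 5298 and 585 to 2225 CPM for erythroid markers. Schwann cell markers summed to 4.76 to 5.95 and 3.82 to 6.52 CPM. The median log2 fold changes were 0.06, 1.31 and 0.15. Here edgeR called 0 of the 6 fibroblast, 5 erythroid and 3 tested Schwann cell markers. Of 5 macrophage markers 3 fell (Adgre1, Csf1r and C1qa), against 5.01% of all tested genes called as lower. The 5 macrophage markers summed to 55.7 to 63.5 CPM in knock-in and 70.3 to 72.8 CPM in wild-type. Of 6 endothelial markers 3 fell (Tie1, Esam and Eng), against the same 5.01%. The endothelial sums were 423 to 482 CPM in knock-in and 463 to 485 CPM in wild-type. Kdr of that list went the other way, with a log2 fold change of 0.15 (111 CPM in knock-in and 101 CPM in wild-type on average). Pecam1 and Cdh5 had -0.13 and -0.06, and edgeR called none of Kdr, Pecam1 and Cdh5. Of the 5 smooth muscle and pericyte markers, whose sum was 404 to 430 CPM in knock-in and 444 to 462 CPM in wild-type, Rgs5 made up most, at 349.6 CPM in knock-in and 382 CPM in wild-type on average. The groups overlapped for the other 4 (Myh11, Acta2, Tagln and Cnn1), and Acta2 had a log2 fold change of 0.06. Of the 5, edgeR, DESeq2 and limma-voom each called 0. In edgeR 1 of the 5 had an unadjusted p under 0.05, against 3401 of all 13485 tested genes. No defining marker of these lists was at 0 counts. Exons of Bin1 share 256 bases with A830052D11Rik on the opposite strand. The part of these cells in the Bin1 difference was not tested.

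**Figure D3:**
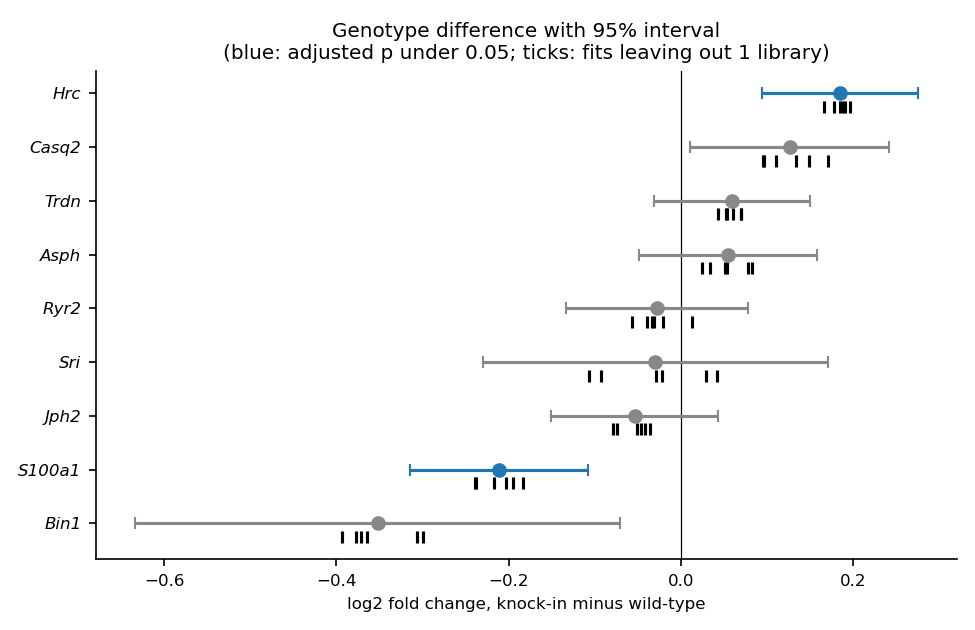
Log2 fold change (knock-in minus wild-type) of the 9 tested genes with 95% intervals from edgeR's quasi-likelihood fit; blue marks genes with an adjusted p under 0.05, and black ticks under each mark are the 6 fits that each left out 1 library. Hrc (0.18) and S100a1 (-0.21) lie on opposite sides of 0, and the ticks of Ryr2 and Sri fall on both sides of 0.

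Ratios of counts within a library do not depend on how libraries are scaled to each other, so each gene was also set against Ryr2. Hrc had 71.3, 77.8 and 71.7 counts per 100 Ryr2 counts in knock-in and 63.9, 64.1 and 62.4 in wild-type. For Casq2 the values were 46.7, 50.4 and 50.4 in knock-in and 46.4, 42.5 and 43.6 in wild-type. For S100a1 they were 19.1, 22.2 and 19.4 in knock-in and 22.5, 22.2 and 24.0 in wild-type, and the nearest mice of the groups, at 22.16 and 22.22, were almost level.

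The groups did not overlap in 5 of 9 such ratios (S100a1, Casq2, Hrc, Trdn and Bin1), against 25.1% of all tested genes set against Ryr2 in the same way. For these 5 the exact two-sided permutation test gave p = 0.1, the smallest that 3 against 3 mice allow, so no ratio could pass 0.05. The log2 difference was 0.21 for Hrc, 0.16 for Casq2, 0.09 for Trdn, -0.18 for S100a1 and -0.32 for Bin1. It was 0.08 for Asph and -0.03 for Jph2, where the groups overlapped (exact permutation p = 0.4 and 0.5). The ratios share the Ryr2 count, so the low Ryr2 level of knock-in mouse 2 raises all of them in that mouse.

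With Casq2 as the denominator the log2 difference of Hrc was 0.06 and that of S100a1 -0.34, and those of Trdn (-0.07), Asph (-0.07) and Sri (-0.15) turned below 0. With the geometric mean of 8 cardiomyocyte markers they were 0.20 and -0.20, and that of Casq2 was 0.14. Set directly against each other, which was chosen after their values were seen, Hrc had 3.72, 3.51 and 3.70 counts for each S100a1 count in knock-in and 2.83, 2.88 and 2.60 in wild-type.

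**Figure D4:**
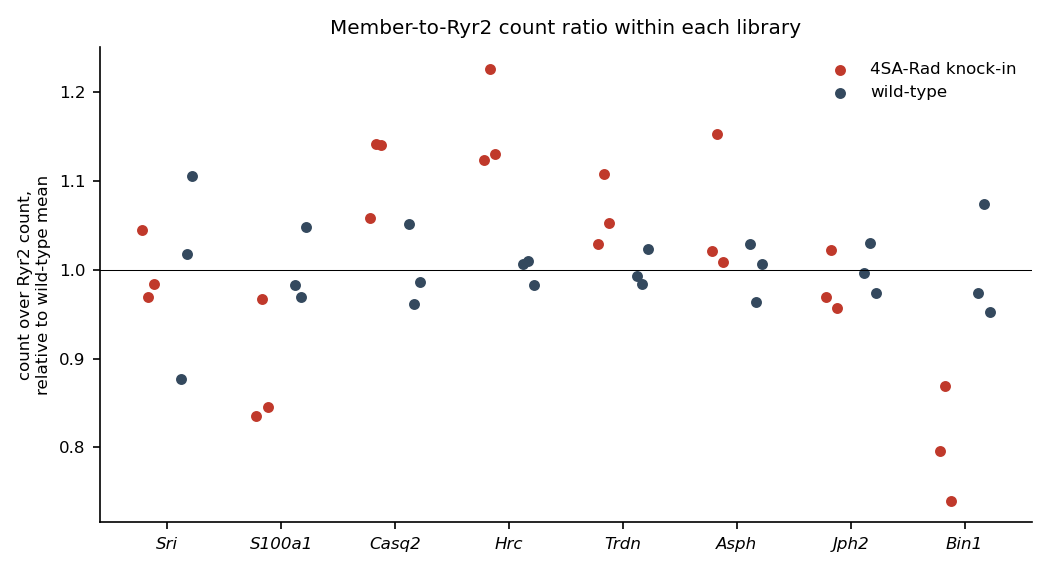
Count of each gene over the Ryr2 count of the same library, divided by the wild-type mean of that ratio; red points are single knock-in mice (left of each pair) and dark points single wild-type mice. Hrc, Casq2 and Trdn ratios are higher and S100a1 and Bin1 ratios lower in all 3 knock-in mice than in any wild-type mouse; Fkbp1b is left out because it had 12 or fewer counts per library.

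Of 48 other genes of the junction and of calcium cycling, 45 were tested, 5 rose, edgeR called 0 as lower and 40 did not pass. The share called was 11.1%, against 9.01% of all tested genes (4.00% as higher and 5.01% as lower). Among the 48, DESeq2 and limma-voom each called 6 as higher and 0 as lower. Their calls over all genes were 450 higher and 611 lower of 12975 (DESeq2) and 534 and 718 of 13485 (limma-voom). At an unadjusted p under 0.05 edgeR gave 10 higher and 6 lower, against 1617 and 1784 of all 13485 tested genes. The median log2 fold change of the 45 was 0.04. The groups did not overlap for 16 of them, against the 29.4% of all tested genes. Among genes of calcium entry at the junction, Cacna2d1 rose, a gene for an extracellular subunit that assists trafficking of the channel, and every fit with 1 library removed, 6 in all, called it (163, 145 and 155 CPM in knock-in, 115, 127 and 126 CPM in wild-type). The L-type pore gene Cacna1c was at 260 ± 5.84 CPM in knock-in and 242 ± 7.14 CPM in wild-type, without overlap. The exchanger gene Slc8a1 was at 121 ± 5.29 and 113 ± 8.21 CPM, with overlap. Neither gene passed (edgeR adjusted p = 0.175 and 0.359).

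Among regulators of the channel, 2 of 14 were called (14.3%, against 9.01% of all tested genes). Prkaca, the main catalytic subunit of protein kinase A, which phosphorylates both Rad and the release channel, was read at 137, 140 and 139 CPM in knock-in and 124, 123 and 126 CPM in wild-type. The groups were well apart and it rose by 0.16 ± 0.04 on the log2 scale (edgeR adjusted p = 0.0313). The adjusted p was 0.102 and 0.124 without knock-in replicate 2 or 3, and 0.0712, 0.0912 and 0.0746 without wild-type replicate 1, 2 or 3. With library size alone the log2 fold change was 0.08 (adjusted p = 0.421).

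Camk2g, a calcium/calmodulin-dependent kinase gene, was read at 33.7, 38.6 and 37.7 CPM in knock-in and 29.4, 31.7 and 26.7 CPM in wild-type, and rose by 0.33 ± 0.08 (edgeR adjusted p = 0.0260). It did not pass without knock-in replicate 2 or 3 (0.0857 and 0.117), without wild-type replicate 1 or 3 (0.0679 and 0.0952) or with library size alone (0.129). Camk2d, the main cardiac isoform gene, stood at 102 ± 5.37 CPM in knock-in and 96.4 ± 4.09 CPM in wild-type without passing the test (edgeR adjusted p = 0.352). Akap6, which anchors protein kinase A near the channel, lay just outside the threshold (152 ± 5.05 and 137 ± 2.22 CPM, edgeR adjusted p = 0.0517).

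Of 10 tested organisers of T-tubules and junctions, Tcap rose, a titin-capping protein that also binds T-tubule components. It was read at 510, 550 and 608 CPM in knock-in and 478, 474 and 413 CPM in wild-type (log2 fold change 0.29 ± 0.07, edgeR adjusted p = 0.0372). Among the 6 fits with a library removed it was called in 1, that without knock-in replicate 1. The adjusted p was 0.0818 and 0.154 without knock-in replicate 2 or 3, 0.0582, 0.0609 and 0.123 without wild-type replicate 1, 2 or 3, and 0.200 with library size alone.

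Of 6 genes of the reticulum lumen and its counter-ion channels, edgeR, DESeq2 and limma-voom each called 0. In edgeR 1 of the 6 had an unadjusted p under 0.05, against 3401 of all 13485 tested genes. Srl, encoding sarcalumenin, stood at 534 ± 16.2 CPM in knock-in and 533 ± 28.0 CPM in wild-type. Of the 3 uptake genes edgeR called 0, DESeq2 1 (against 1061 of 12975 genes) and limma-voom 0. In edgeR 1 of the 3 had an unadjusted p under 0.05, against the same 3401 genes. The calcium pump gene Atp2a2 was at 7461 ± 56.5 CPM in knock-in and 7413 ± 260 CPM in wild-type, with overlap (edgeR adjusted p = 0.919). Its inhibitor gene Pln was at 3775 ± 129 and 3470 ± 77.4 CPM, without overlap (edgeR adjusted p = 0.113). Of the paralogs, Ryr3 stood at 2.00 ± 0.108 CPM in knock-in and 1.38 ± 0.388 CPM in wild-type without overlap (edgeR adjusted p = 0.151), and Ryr1 at 0.492 ± 0.320 and 0.619 ± 0.222 CPM (0.723). Both were far below the 1107 and 1128 CPM means of Ryr2, with transcripts of similar length; Ryr3 shares 916 exonic bases with Aven on the opposite strand.

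**Figure D5:**
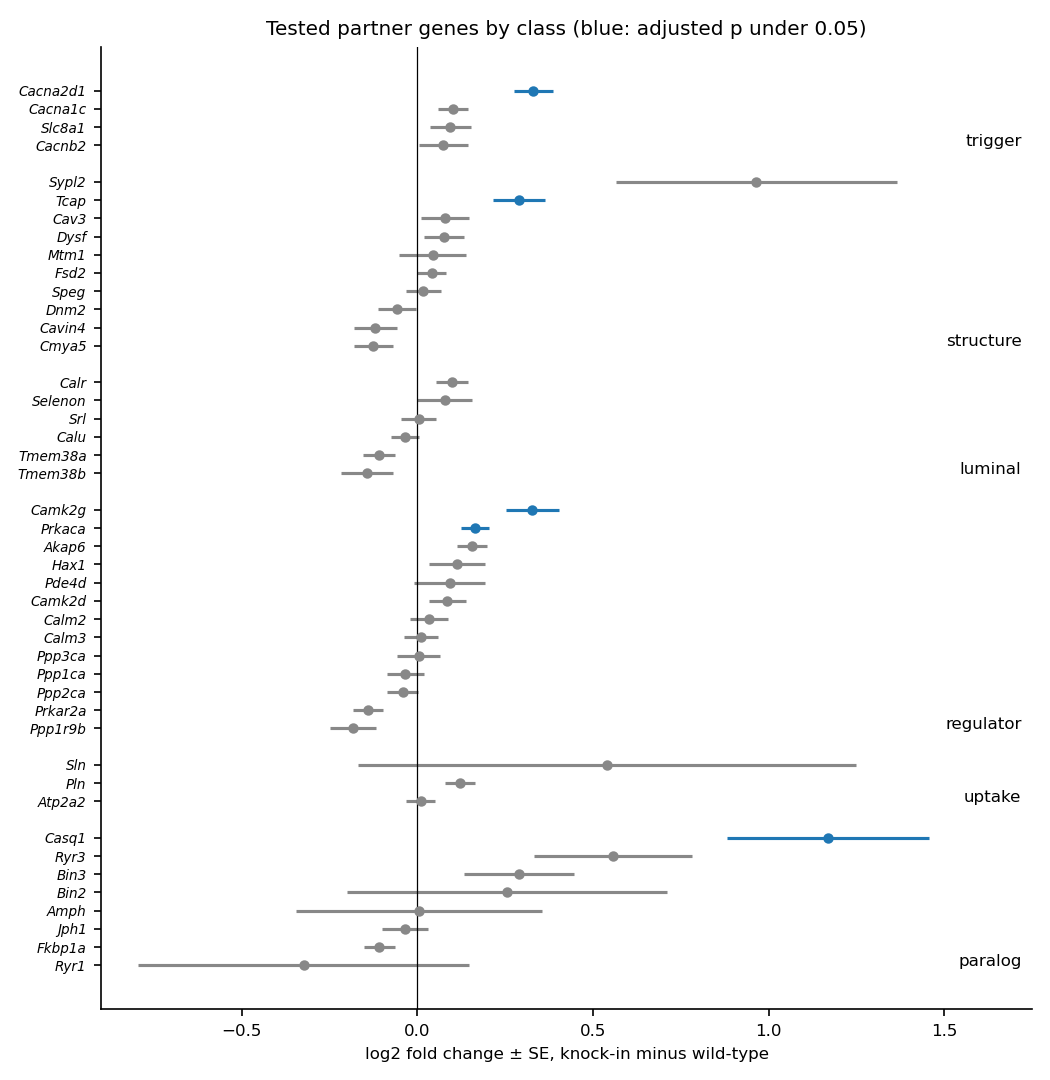
Log2 fold change ± SE (knock-in minus wild-type, edgeR) of the tested partner genes (1 of the 45 is not shown), grouped by class and sorted within it; blue marks an adjusted p under 0.05. The 5 blue genes (Cacna2d1, Tcap, Camk2g, Prkaca and Casq1) all lie above 0.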

How the data were processed

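Stranded TruSeq libraries were prepared from column-purified, DNase-treated myocardial RNA, per the labels' protocols. Software named in the submitters' processing notes is kallisto 0.44.0 and bcl2fastq 2.19, with the build GRCm38. The deposited table holds estimated counts per gene symbol that the authors made, read here as kallisto output; all values were whole numbers. The sources used here do not give the annotation, the summing to genes or the use of strand. Of 34945 symbols, 14853 had 0 counts in all 6 libraries. Columns were matched to mice by the sample number and code in the labels, and 0 sample columns were unused. No library pair within a genotype agreed within sampling noise (chi-square per degree of freedom 7.98 or more). Nothing beyond the design text says how the mice were bred or processed. The p-values therefore set a genotype difference against the spread between these samples only, which edgeR estimates partly over all genes.

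Counts were analysed in R 4.3.3 with edgeR 4.0.16 (filterByExpr, TMM, glmQLFit and glmQLFTest, two-sided, no covariate). Benjamini-Hochberg adjustment covered every tested gene. SE is the fold change over the root of F. CPM are TMM-scaled, and log2-CPM used a prior count of 2. Gene positions and transcript lengths are from GENCODE M21 on GRCm38, matched by symbol. The pipeline was tested on simulated data. DESeq2 1.42.0, limma-voom (limma 3.58.1), other scalings, filters and dispersions, and leaving out each library were the alternatives. The members, lists, tests and alternatives were chosen with earlier results of these data known. Named genes are the members, called list genes, some paralogs and core calcium genes, Rrad, substrain genes and the 3 genes nearest to Ryr2; other list genes are examples. The values of 1 partner gene are not reported here.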

Additional observations from a re-analysis of the deposited data

How the results depend on the processing

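Over the 9 alternatives that kept all libraries and one added after seeing the data, in which every library was thinned to the total of the shallowest (24761124 counts), S100a1 was called as lower in all 10, and Hrc as higher in 9. With library size alone, 0 members were higher, and of the partner genes 2 were higher and 2 lower; that scaling moved the median of all genes to -0.08 and gave 227 higher and 1177 lower genes against 540 and 675. Leaving out 1 library at a time gave 0 to 1 members higher, 0 to 1 lower, and 1 to 4 partner genes higher; these fits have fewer mice. Over all genes such fits called 338 (without knock-in replicate 3) to 1378 (without knock-in replicate 1), against 1215. Among the members, directions turned only for genes that were not called: Trdn (-0.0231) and Asph (-0.0287) with library size alone, and Ryr2 and Sri when a library was left out (log2 fold changes from -0.0572 to 0.0124 and from -0.107 to 0.0424). The number of ratios to Ryr2 without overlap was 5 to 7 when a library was left out and 4 with either other denominator. The share over all genes was taken only for Ryr2 with all libraries (25.1%). Smaller groups separate more easily, so the counts with a library left out are no check on the main count. No paired analysis was possible because no replicate number in the labels links a knock-in to a wild-type mouse. Depth limits Fkbp1b, and Bin1 had the fewest counts of the tested members. The log2 fold change of Bin1 was -0.21 in the thinned libraries against -0.35, outside its range of -0.39 to -0.30 when a library was left out. Thinning was a single random draw, and the part of depth in that move was not tested. The log2 differences to Ryr2 of Trdn and Asph turned to -0.07 each with Casq2 as the denominator, and that of Sri, 0.005 to Ryr2, turned with either other denominator (-0.15 and -0.01).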
